A study of Mus musculus with 6 samples.

Results

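Genes for secreted proteins of the stomach and gut were examined in mouse lung tumours of a Keap1 knockout group and a control group: the pepsinogen genes Pga5 and Pgc, the trefoil factor genes Tff1, Tff2 and Tff3, the gastrokine gene Gkn2, the trypsin inhibitor gene Spink1, and the mucin genes Muc1, Muc5ac and Muc5b. These are 10 of the 56980 Ensembl genes in the count table, found by matching identifiers to symbols. They were selected on their read counts in these libraries, with the knockout against control differences in view, so those differences are given as a description, with no test of them, and the number past the threshold appears beside the share of all genes only as background. The Keap1 knockout samples, which the study's design text also calls depleted, were 3 libraries from lung tumours titled QKO, and the controls were 3 libraries from QKO tumours with the genotype Control. All 6 were mouse tumours of small cell lung cancer, profiled about 4 months after a virus was injected. KEAP1 holds down the transcription factor NRF2, and the study asked how its loss alters the tumours. The labels do not spell out QKO, name the alleles, say how Keap1 was inactivated what the virus carried, or say whether the libraries of a group represent separate animals. P-values therefore measure the spread between these samples, which may be technical. The columns of the knockout libraries carry names that begin with KP and those of the controls names that begin with QKO, although the titles call both QKO tumours.

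Between 18731515 and 23759892 reads per library were counted on genes. Keap1 RNA stood at 67.5, 93.0 and 79.9 CPM in knockouts 1 to 3 and at 78.4, 74.5 and 58.7 CPM in controls 1 to 3, where CPM is the read count scaled to a common library size with TMM. Transcript level need not follow a gene disruption, so it does not check the labels. Of the markers of neuroendocrine small cell cancer, Insm1, Chga, Neurod1, Dll3 and Syp had at most 19 reads in any knockout, whereas Ncam1, Uchl1 and Calca were present in all 6 libraries. Insm1 had 2, 0 and 0 reads and Chga 2, 8 and 0 reads in the knockouts. The 9 listed neuroendocrine markers summed to 214, 63.9 and 54.5 CPM in the knockouts and to 107, 73.0 and 4890 CPM in the controls. Control 3 held most of these reads among the controls, with 354, 28 and 12495 reads of Insm1 and 156, 10 and 19038 of Chga. The controls also differed among themselves more than the knockouts did, with a chi-square per degree of freedom over genes of 26.6 to 53.5 between pairs of knockouts and 200 to 330 between pairs of controls, so control values of the 10 genes are given library by library. In the whole table, 17901 genes passed a filter on low counts, and 771 of them, 4.31%, changed at an adjusted p below 0.05. All adjusted p-values are Benjamini-Hochberg values over these genes from edgeR's quasi-likelihood test.

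Pepsinogens are the inactive forms of stomach proteases, made by chief cells. Trefoil factors are small peptides with a looped fold that are secreted with mucus and help epithelia close wounds, and gastrokines are secreted by the surface cells of the stomach. Gel-forming mucins such as those encoded by Muc5ac and Muc5b make up airway and stomach mucus, whereas the protein from Muc1 stays anchored in the apical membrane. In normal mouse airways Muc5b is the main gel-forming mucin and Muc5ac appears with allergic or irritant stimulation.

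The 10 genes did not move as a group. All knockout libraries lay above all controls for Pga5, Tff2, Tff3, Gkn2 and Spink1, and all knockout libraries lay below all controls for Muc5ac. The groups overlapped for Pgc, Tff1, Muc1 and Muc5b. Of the 7 genes that passed the filter, 2 (Pga5 and Spink1) lay beyond the edgeR threshold, against 4.31% of all tested genes. Groups without overlap were found for 5 of the 7, against 40.7% of all tested genes. Since this same comparison guided the choice of the genes, nothing is read from these counts. Pgc, Tff1 and Gkn2 did not pass the filter, and Pga5 and Spink1 passed it through the knockout libraries alone. Tff2 and Tff3 also needed knockout libraries to pass, since controls 1 to 3 held 6, 12 and 0 reads of Tff2 and 41, 42 and 7 reads of Tff3.

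**Figure D1:**
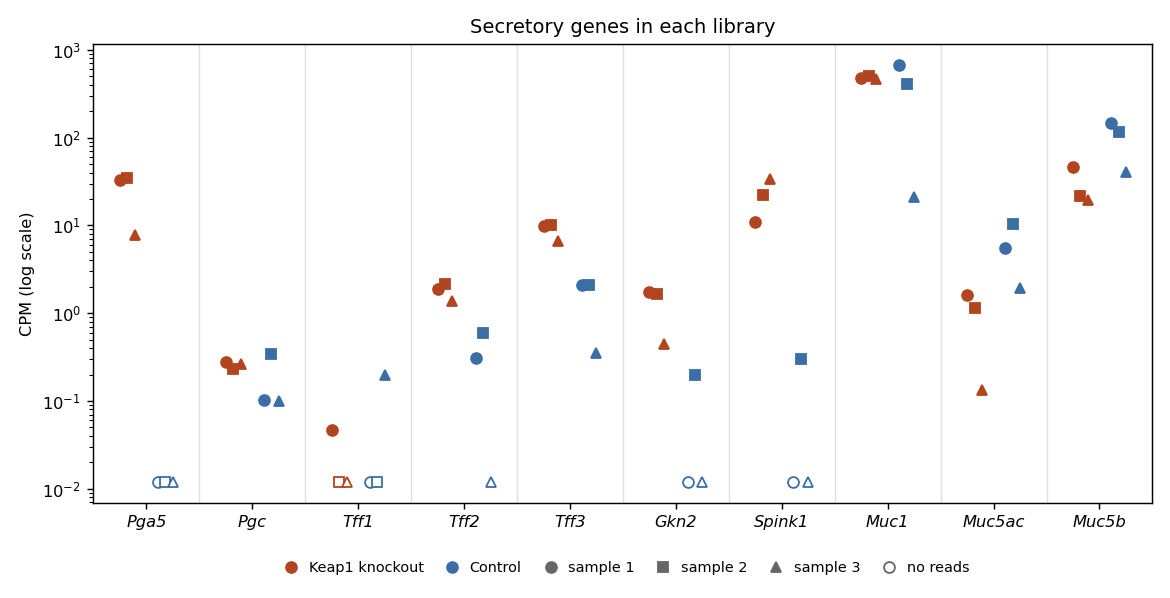
Level of each secretory gene in each library, in CPM on a log axis. Each point is 1 library, with knockouts to the left of controls and open symbols at the foot of the plot for libraries without a read. Pga5 has no read in any control, Muc1 lies between 462 and 498 CPM in all knockouts, and Muc5ac and Muc5b lie lower in the knockouts, with an overlap for Muc5b.

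The pepsinogen genes behaved differently from each other. Pga5 (ENSMUSG00000024738, chromosome 19), which encodes the precursor of pepsin A, had 712, 767 and 175 reads in knockouts 1 to 3 and no read in any of the controls. Its level was 25.3 ± 15.3 CPM in knockouts (SD, n = 3), at least 501-fold above the controls when these are set at 3 reads over the group. Such bounds cover counting error only. Knockout 3 held 7.69 CPM, against 33.2 and 35.1 CPM in the other knockouts. Pgc (ENSMUSG00000023987, chromosome 17), which encodes progastricsin, was barely present anywhere, with 6, 5 and 6 reads in knockouts and 2, 7 and 2 reads in controls. The ratio of its pooled reads was 1.40, with a 95% counting interval of 0.62 to 3.31, so no difference was detectable at this depth.

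Of the trefoil genes, Tff3 and Tff2 were higher in the knockouts and Tff1 was almost silent. All 3 lie side by side on chromosome 17. Tff3 (ENSMUSG00000024029), the intestinal trefoil factor, had 211, 223 and 151 reads in knockouts 1 to 3 and 41, 42 and 7 reads in controls 1 to 3. Its levels of 8.90 ± 1.96 CPM in knockouts and 1.5 ± 1.00 CPM in controls (SD, n = 3 each) differ 5.92-fold. Tff2 (ENSMUSG00000024028), the trefoil factor of gastric mucous neck cells, had 41, 47 and 31 reads in knockouts and 6, 12 and 0 reads in controls. It stood at 1.81 ± 0.405 CPM in knockouts and 0.300 ± 0.297 CPM in controls (SD, n = 3 each), a 6.04-fold difference. Both genes were lowest in knockout 3 among the knockouts and in control 3 among the controls. Tff1 (ENSMUSG00000024032), made by surface cells of the stomach, had 1, 0 and 0 reads in knockouts and 0, 0 and 4 reads in controls, too few for a fold.

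The ratio of Tff3 to Tff2 was similar in the knockouts, where it rests on 41, 47 and 31 reads of Tff2. Counting error at such numbers is wider than the differences between these ratios, so their closeness is read for nothing. Per kilobase of exon, Tff3 stood 6.10, 5.62 and 5.77 times as high as Tff2 in knockouts 1 to 3. The ratio was 8.09 and 4.15 in controls 1 and 2, where it rests on 6 and 12 reads of Tff2, and control 3 had no read of Tff2. Without control 3, the log2 fold changes fitted by edgeR were 2.09 for Tff3 and 1.99 for Tff2, against 2.56 and 2.57 with all libraries.

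Gkn2 (ENSMUSG00000030049, chromosome 6), a gastrokine gene, had 37, 36 and 10 reads in knockouts 1 to 3 and 0, 4 and 0 reads in controls 1 to 3. Its ratio of pooled reads was 18.8, with a 95% counting interval of 7.09 to 70.8. The reads of the control group all came from control 2. Its neighbours of the same family were close to silent: Gkn1 had 5, 1 and 0 reads and Gkn3 had 0, 5 and 3 reads in knockouts, and neither had a read in a control.

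RefSeq promoter windows, from 250 bases before to 50 bases after the start site in GRCm38.p6, were at hand for Gkn2, Muc1 and Pgc. They are shown because these genes took different courses, with Gkn2 higher in the knockouts, Muc1 abundant in both groups and Pgc barely detected in either. Each runs 5′ to 3′ along the gene, which is on the plus strand in all 3 cases. Capitals mark matches, on either strand, to the core of the antioxidant response element (TGACNNNGC), which NRF2 binds with its MAF partners, to a forkhead box A word (TGTTTAC), to a GATA factor word (AGATAA) or to the TATA box (TATAAA).
Gkn2, chr6:87373115-87373414: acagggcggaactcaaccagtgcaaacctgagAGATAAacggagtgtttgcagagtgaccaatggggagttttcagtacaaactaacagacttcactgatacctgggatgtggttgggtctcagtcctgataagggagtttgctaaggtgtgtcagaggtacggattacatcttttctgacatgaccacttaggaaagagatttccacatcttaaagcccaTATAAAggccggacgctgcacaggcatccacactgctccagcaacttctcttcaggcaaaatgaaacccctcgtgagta
Muc1, chr3:89228806-89229105: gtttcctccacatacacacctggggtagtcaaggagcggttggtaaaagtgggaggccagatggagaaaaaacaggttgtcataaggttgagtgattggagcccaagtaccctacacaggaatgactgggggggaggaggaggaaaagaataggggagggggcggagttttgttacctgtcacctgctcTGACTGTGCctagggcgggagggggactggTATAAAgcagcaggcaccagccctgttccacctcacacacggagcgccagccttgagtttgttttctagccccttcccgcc
Pgc, chr17:47726592-47726891: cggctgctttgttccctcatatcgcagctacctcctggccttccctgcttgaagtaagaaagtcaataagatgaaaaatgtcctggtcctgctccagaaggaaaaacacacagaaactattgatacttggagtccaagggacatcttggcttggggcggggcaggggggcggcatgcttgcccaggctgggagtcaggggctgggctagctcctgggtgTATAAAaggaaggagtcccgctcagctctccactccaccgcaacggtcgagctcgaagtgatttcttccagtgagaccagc
All 3 windows held a TATA box, starting 29, 31 and 31 bases before the start site in Gkn2, Muc1 and Pgc, a word found in 13.6% of 32851 promoter windows. Muc1 had a match to the antioxidant response element core, starting 61 bases before the start site, a word found in 12.4% of all windows. Gkn2 had a GATA word, starting 218 bases before the start site, found in 11.2% of all windows. No forkhead word occurred in the 3 windows, against 3.65% of all. The matches overlap nowhere. They describe letters in these windows and not bound factors.

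Spink1 (ENSMUSG00000024503, chromosome 18) encodes a secreted inhibitor of trypsin, known from the pancreas and also made by gut epithelium. It had 233, 482 and 774 reads in knockouts 1 to 3 and 0, 6 and 0 reads in controls 1 to 3. The mean levels of 22.3 ± 11.6 CPM in knockouts and 0.0991 ± 0.172 CPM in controls (SD, n = 3 each) differ 225-fold. The ratio of pooled reads has a 95% counting interval of 103 to 615, and all control reads came from control 2. The fitted log2 fold change was 7.72 with all libraries and ran to 11.89 without control 2, where no control read is left and the value depends on the prior count. Knockout 3 held the most Spink1 RNA and knockout 1 the least, an order seen in no other gene of the 10: among the other 6 that passed the filter, knockout 3 was the lowest of the knockouts in every case.

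The gel-forming mucins pointed the other way. Muc5ac (ENSMUSG00000037974, chromosome 7) had 34, 25 and 3 reads in knockouts 1 to 3 and 108, 212 and 39 reads in controls 1 to 3. Its levels were 0.954 ± 0.745 CPM in knockouts and 5.98 ± 4.30 CPM in controls (SD, n = 3 each), and the fitted log2 fold change was -2.64. Knockout 1, with 1.59 CPM, lay just under control 3, with 1.94 CPM. Muc5b (ENSMUSG00000066108), its neighbour on chromosome 7, had 981, 468 and 447 reads in knockouts and 2878, 2349 and 810 reads in controls. Its levels of 28.9 ± 14.6 CPM in knockouts and 101 ± 54.5 CPM in controls (SD, n = 3 each) correspond to a log2 fold change of -1.80. Knockout 1, at 45.7 CPM, lay above control 3, at 40.3 CPM, so the groups overlapped. Across the alternative fits both genes kept a negative log2 fold change, between -3.20 and -1.94 for Muc5ac and between -2.28 and -1.43 for Muc5b.

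Muc5b was the more abundant gel-forming mucin in every library. Per kilobase of exon it stood 20.7, 13.5 and 107 times as high as Muc5ac in knockouts 1 to 3 and 19.1, 7.96 and 14.9 times as high in controls 1 to 3. The value of 107 rests on 3 reads of Muc5ac.

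Muc1 (ENSMUSG00000042784, chromosome 3) had the highest level per kilobase of exon of the 10 genes in every library and was the most even of them among the knockouts. It had 10339, 10882 and 10519 reads in knockouts 1 to 3 and 13305, 8322 and 428 reads in controls 1 to 3. Its mean was 481 ± 18.0 CPM in knockouts and 370 ± 329 CPM in controls (SD, n = 3 each). Controls 1 and 2, at 675 and 412 CPM, lay on either side of the knockouts, and control 3 held 21.3 CPM. The direction of its log2 fold change depended on control 3: it was 0.38 with all libraries and -0.18 without that one.

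Ordered by mean level per kilobase of exon, the knockouts held Muc1 at 205 CPM per kb, then Spink1 at 30.6, Tff3 at 18.0, Pga5 at 15.7, Tff2 at 3.10, Muc5b at 1.93 and Gkn2 at 1.61 CPM per kb. Pgc, Muc5ac and Tff1 followed, at 0.185, 0.0887 and 0.0221 CPM per kb. The ranges of Spink1, Tff3 and Pga5 over the 3 knockouts overlapped, as did those of Tff2 and Muc5b and those of Muc5b and Gkn2, and those of Muc5ac and Tff1, so these neighbours in the order were not set apart by their spread. The controls held Muc1 at 158 CPM per kb, Muc5b at 6.74, Tff3 at 3.05, Muc5ac at 0.556 and Tff2 at 0.513 CPM per kb. Below them came Spink1, Pgc, Tff1 and Gkn2, between 0.0838 and 0.136 CPM per kb, and Pga5 without a read. In the knockouts Muc5b came after Tff3 and Tff2, whereas in the controls it came before both. In the controls the ranges of all neighbours in the order overlapped.

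**Figure D2:**
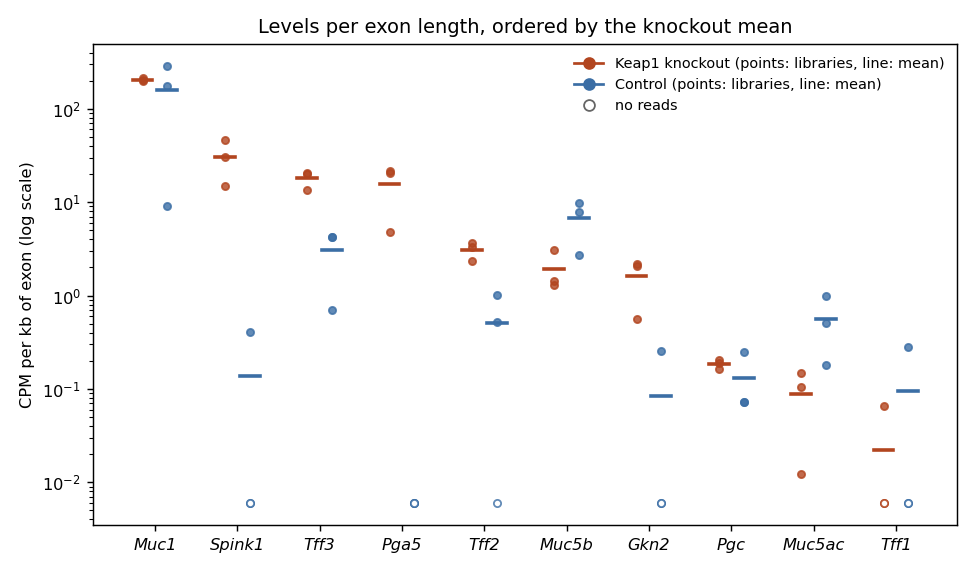
Level of each secretory gene per kilobase of exon, in CPM per kb on a log axis, ordered by the knockout mean. Points are libraries, lines are means of 3 libraries, and open points at the foot are libraries without a read. Spink1, Tff3 and Pga5 lie between 4.76 and 46.7 CPM per kb in every knockout.

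Shared sequence was looked for, since reads of near-identical copies can be split between genes. None of the 10 shared a 50-base word with a transcript of another gene in GENCODE M21. Their exons overlapped those of 1 other gene, where Tff1 and an antisense transcript share 221 bases. In the authors' deposited table, which is a DESeq2 comparison of the same libraries, the log2 fold changes were 11.42 for Pga5, 7.80 for Spink1, 4.25 for Gkn2, 2.58 for Tff2 and 2.56 for Tff3. That table gives 0.48 for Pgc, 0.37 for Muc1, -1.81 for Muc5b and -2.66 for Muc5ac.

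The surroundings of the 10 genes were not used to choose them. In RefSeq order on the earlier GRCm38.p6 build, their 2 nearest protein-coding genes on each side are 28 genes, of which 20 passed the filter. By edgeR's quasi-likelihood test 4 of these 20 were past the threshold, all of them higher in the knockouts, against 2.42% higher and 1.89% lower among all tested genes. Of these, Umodl1 had no control reads and passed the filter through the knockouts alone, and of the 19 others 3 rose. The count of 4 was 0 when any 1 knockout was left out, 1 without control 1, 1 without control 2 and 7 without control 3, and DESeq2 called 15, against 26.6% of all genes by DESeq2. The median log2 fold change of the 20 was -0.14, against -0.085 for all tested genes. Beside Pga5, Vwce (a von Willebrand factor C domain gene) stood at 42.9, 108 and 279 CPM in knockouts 1 to 3 and at 0.203, 0.941 and 3.09 CPM in controls 1 to 3. It rose by a log2 fold change of 6.66 ± 1.24 (SE; edgeR, adjusted p = 0.0462), a call that ended with limma voom (adjusted p = 0.0514) and without the filter on low counts (adjusted p = 0.076). Vps37c, on the other side of Pga5 and part of the endosomal sorting machinery, stood at 121 ± 5.94 CPM in knockouts and 25.4 ± 12.5 CPM in controls (SD, n = 3 each). Its log2 fold change was 2.25 ± 0.42 (SE; edgeR, adjusted p = 0.0459). Vwce was highest in knockout 3, where Pga5 was lowest. Vwce and Vps37c were singled out after their values were seen.

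Next to Spink1 lies Scgb3a2, which encodes a secretoglobin of airway club cells. It stood at 194, 245 and 415 CPM in knockouts 1 to 3 and at 10.9, 27.8 and 6.12 CPM in controls 1 to 3, and its log2 fold change was 4.25 ± 0.68 (SE; edgeR, adjusted p = 0.0391). Like Spink1 it was highest in knockout 3, lowest in knockout 1 and, among the controls, highest in control 2. Genes on other chromosomes, such as Kcne2 and Scgb1a1 described below, had this order too. How many genes share it was not counted, so nothing is read from it. On one side of the trefoil genes, Umodl1 had 13, 16 and 34 reads in knockouts and none in controls, at least 19.1-fold higher against 3 reads over the group. Between Umodl1 and the trefoil genes lies the sterol transporter gene Abcg1, which stood at 22.8 ± 4.22 CPM in knockouts and 61.6 ± 21.6 CPM in controls (SD, n = 3 each) and missed the threshold (edgeR, adjusted p = 0.0602). Tmprss3 and Ubash3a, on the other side, did not pass the filter. Around the gel-forming mucins, Muc2, Tollip and Brsk2 had log2 fold changes of -1.32, -0.49 and -8.30 and did not pass, with adjusted p of 0.137, 0.107 and 0.0797 by the edgeR test. In all 3 of them the knockout libraries lay below all controls, as they did in 19.1% of all tested genes. Brsk2, a neuronal kinase gene, had 138 CPM in control 3 and at most 8.27 CPM in any other library. It stood at 0.148 ± 0.182 CPM in knockouts (SD, n = 3) and passed the filter through the controls alone. Its negative direction and its place among the genes without overlap were thus favoured by the filter.

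**Figure D3:**
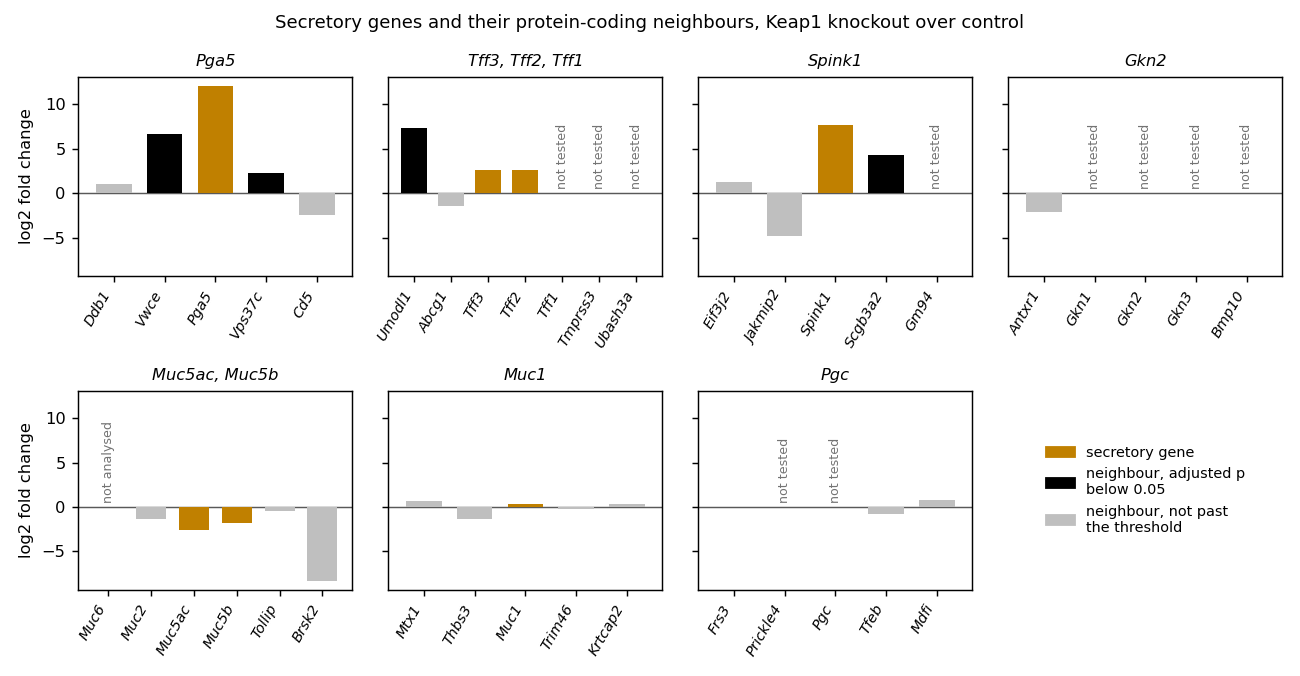
Log2 fold changes, knockout over control, of the secretory genes and their 2 nearest protein-coding genes on each side, in genome order. Bars of Pga5 and Umodl1 are fitted values that depend on the prior count, since the controls had no reads. Black bars mark the 4 neighbours with an adjusted p below 0.05, of which Umodl1 passed the filter through the knockouts alone, next to Pga5, the trefoil genes and Spink1.

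Beside the 10 genes stood 9 lists of related genes. The edgeR test called 4.31% of all tested genes, and the calls in the lists are to be read beside that share. The lists were drawn up from textbook knowledge with earlier results of these data known, and they leave out the 10 genes. Among all tested genes, 53.9% had a negative log2 fold change, 30.7% had an unadjusted p under 0.05, DESeq2 called 26.6% and limma voom called 5.96%. Of 18 other genes of the stomach lining, 11 passed the filter, of which 1 rose and none fell by edgeR's quasi-likelihood test, with a median log2 fold change of -0.35. The gene that rose was Kcne2, the potassium channel subunit that works with the acid pump. It stood at 9.42, 16.0 and 17.4 CPM in knockouts 1 to 3 and at 2.23, 3.82 and 1.64 CPM in controls 1 to 3, a log2 fold change of 2.47 ± 0.49 (SE; edgeR, adjusted p = 0.0489). Some members were near zero, with at most 7 reads in any library for Gkn1, Gkn3, the gastric lipase gene Lipf, the acid pump subunit gene Atp4b, the gastrin gene Gast and the intrinsic factor gene Cblif. The other acid pump subunit gene, Atp4a, had 22, 17 and 15 reads in knockouts 1 to 3 and 3, 3 and 52 in controls 1 to 3. Further members were expressed, with peaks of 358 CPM for Psca in control 1 and of 47.0, 43.3 and 27.2 CPM for Vsig1, Chia1 and Anxa10 in control 2. None of these passed the edgeR test. The claudin gene Cldn18 and the tetraspanin gene Tspan8, shared by lung and stomach, varied widely between controls and did not pass. Cldn18 stood at 180, 177 and 96.4 CPM in knockouts and at 61.2, 371 and 8.46 CPM in controls, and Tspan8 at 165, 140 and 84.8 CPM in knockouts and at 21.6, 142 and 4.48 CPM in controls. The genes of this list other than Kcne2 were singled out after their values were seen.

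Of 18 intestinal genes 10 were tested and edgeR called none, with 2 at an unadjusted p below 0.05. DESeq2 called 2 of them and limma voom 0, and their median log2 fold change was -1.84. Lgals4 (galectin-4) stood at 70.0, 25 and 25.7 CPM in knockouts 1 to 3 and at 29.2, 127 and 3.14 CPM in controls 1 to 3. Fcgbp, a mucus protein of goblet cells, stood at 17.6, 6.46 and 5.76 CPM in knockouts and at 45.0, 173 and 9.21 CPM in controls. The edgeR adjusted p were 0.838 and 0.138.

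No other mucin gene and no gene that builds or exports mucins passed the edgeR test. Of 15 other mucins 10 were in the table and 7 were tested, 6 of them with a negative log2 fold change and a median of -0.85. The groups overlapped in 4 of the 7 and lay apart in 3, whereas they lay apart in 40.7% of all tested genes. EdgeR called 0, although 3 had an unadjusted p under 0.05, DESeq2 called 3 and limma voom 1. Among all genes the shares were 4.31%, 30.7%, 26.6% and 5.96%, in the same order. Muc2, the intestinal gel-forming mucin, stood at 2.42, 3.34 and 4.75 CPM in knockouts 1 to 3 and at 13.1, 7.83 and 5.38 CPM in controls 1 to 3. The membrane mucin Muc13 stood at 0.746, 0.0916 and 0 CPM in knockouts and at 4.72, 4.51 and 4.13 CPM in controls (edgeR, adjusted p = 0.0977). Of the tested members, Muc2, Muc13 and Cd164 share with Muc5ac that no knockout library reached the lowest control. The same held for 19.1% of all tested genes. Muc13, with 16, 2 and 0 reads in knockouts 1 to 3, needed control libraries to pass the filter. Muc5ac was chosen with this comparison in view. The members with the highest mean CPM, the sialomucin Cd164 and the adhesion protein gene Mcam, had log2 fold changes of -0.46 and -0.85, with adjusted p of 0.189 and 0.262 by the edgeR test. Muc4, Muc6, Muc17, Muc19 and Muc21 were not analysed here.

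Of 22 genes for mucin assembly and secretion 19 were tested, and 14 had a negative log2 fold change, with a median of -1.01. EdgeR called 0, although 4 had an unadjusted p under 0.05, DESeq2 called 4 and limma voom 0. Over all genes these shares were 4.31%, 30.7%, 26.6% and 5.96%, in the same order. The groups overlapped in 15 of the 19, and in 4 the knockout libraries lay below all controls, against 19.1% of all tested genes. These were Spdef, the goblet cell transcription factor, Agr2, a disulfide isomerase that mucin folding needs, and the glycosyltransferase genes Galnt7 and Gcnt1. Spdef, with 11, 11 and 1 reads in knockouts 1 to 3, needed control libraries to pass the filter. Galnt7 stood at 5.97, 9.75 and 5.98 CPM in knockouts and at 93.7, 25.2 and 17.7 CPM in controls, and Gcnt1 at 6.15, 3.16 and 1.98 CPM in knockouts and at 43.9, 18.9 and 11.4 CPM in controls. For the 4 genes the edgeR adjusted p lay between 0.0730 and 0.141. These 4 genes and Muc13 were singled out after their values were seen. The members with the highest mean CPM, the secretory regulator Xbp1 and the core O-glycan enzyme gene C1galt1, had log2 fold changes of 0.30 and -0.37, with adjusted p of 0.459 and 0.290.

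Among the relatives of the pepsinogens and of Spink1, 8 of 13 genes were tested, of which 1 fell and none rose. Bace1, an aspartic protease gene known from the brain, stood at 17.3 ± 1.46 CPM in knockouts and 53.6 ± 16.8 CPM in controls (SD, n = 3 each), with a fitted log2 fold change of -1.63 ± 0.28 (SE; edgeR, adjusted p = 0.0416). Cym encodes the milk-clotting stomach protease chymosin, a relative of the pepsinogens. It stood at 1080, 176 and 269 CPM in knockouts 1 to 3 and at 0.203, 1180 and 1.19 CPM in controls 1 to 3. Control 2 thus held Cym RNA at the level of the highest knockout, whereas that library had no read of Pga5. The adjusted p was 0.930, and without control 2 the log2 fold change was 9.52 with an adjusted p of 0.0608, both by the edgeR test. Spink5, an inhibitor of skin proteases, stood at 544 CPM in control 1 and at most 9.58 CPM in any other library. Cym and Spink5 were singled out after their values were seen.

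The proteases that the Spink1 protein is known to block were all but missing. Prss1, Prss2, Prss3, Try4 and Try5, which encode trypsinogens, had at most 2 reads in any library, which was seen before they were named. Of 17 pancreatic acinar enzyme genes 3 were tested, of which 1 rose and none fell. Cela1, an elastase gene, stood at 42.7, 17.8 and 13.5 CPM in knockouts 1 to 3 and at 0.964, 1.68 and 0.896 CPM in controls 1 to 3. It rose by a log2 fold change of 4.38 ± 0.62 (SE; edgeR, adjusted p = 0.0337). The 14 untested acinar genes had at most 39 reads in any library.

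Of 25 transcription factors of the endoderm and stomach 18 were tested, of which 1 rose and 1 fell, with a median log2 fold change of 0.06. Gata6, active in foregut and lung development, rose to 97.2 ± 3.68 CPM in knockouts, against 23.2 ± 9.19 CPM in controls (SD, n = 3 each), with a fitted log2 fold change of 2.07 ± 0.34 (SE; edgeR, adjusted p = 0.0402). Sox2, the foregut and airway progenitor factor, fell to 3.54, 4.35 and 5.93 CPM in knockouts 1 to 3, against 188, 44.7 and 138 CPM in controls 1 to 3 (edgeR, adjusted p = 0.0304). The hepatic and gut regulator Hnf4a stood at 35.7, 21.5 and 9.05 CPM in knockouts and at 2.84, 51.3 and 0.149 CPM in controls (edgeR, adjusted p = 0.919). Cdx2, the master regulator of intestinal identity, was too rare to test, with no reads in the knockouts and 13, 26 and 1 reads in controls 1 to 3. The lung factor Nkx2-1 stood at 395 ± 31.6 CPM in knockouts and 410 ± 110 CPM in controls (SD, n = 3 each). Hnf4a, Cdx2 and Nkx2-1 were singled out after their values were seen.

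**Figure D4:**
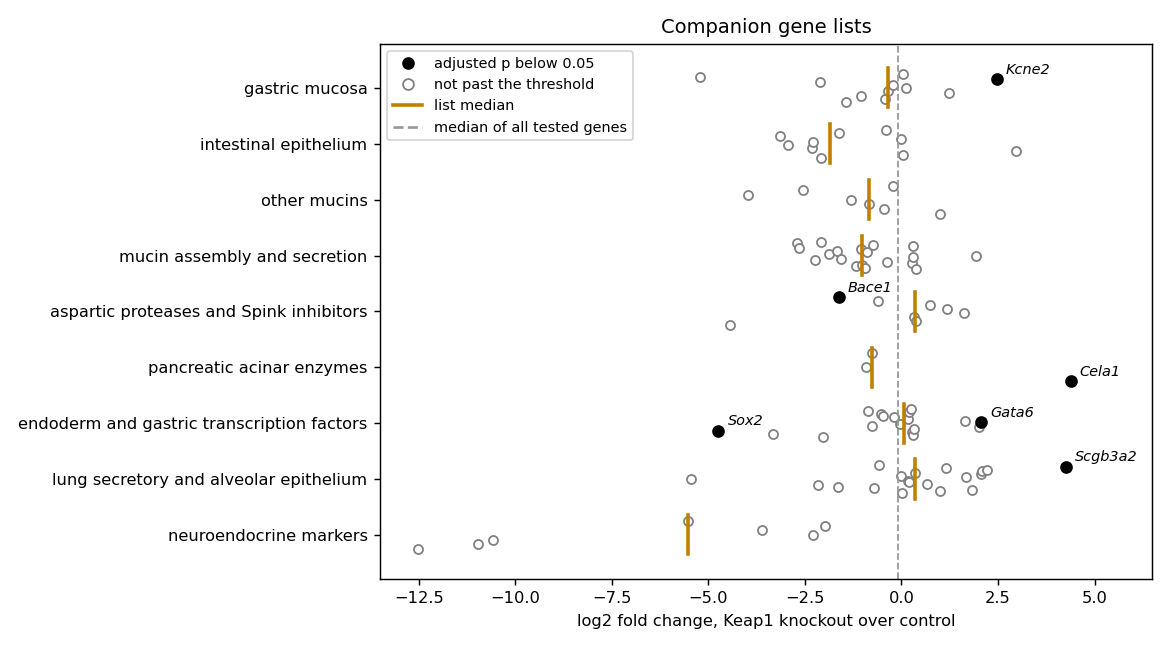
Log2 fold changes, knockout over control, of the tested members of 9 lists. Filled points have an edgeR adjusted p below 0.05, bars are list medians and the dashed line is the median of all tested genes. Outside the neuroendocrine list, whose 7 members all lie below zero, every list has members on both sides of zero. In the neuroendocrine list, members such as Chga and Insm1 passed the filter through the controls alone, which fixed their direction.

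Markers of normal lung epithelium were present throughout. Of 20 such genes 19 were tested and 1 rose, Scgb3a2, which is also counted among the neighbours. Their median log2 fold change was 0.35. The summed level of the 20 was 4180, 8740 and 7990 CPM in knockouts 1 to 3 and 9670, 3600 and 1130 CPM in controls 1 to 3, where Ltf alone, the lactoferrin gene, made up 6660 CPM of control 1. The club cell gene Scgb1a1 stood at 1570, 3500 and 5330 CPM in knockouts and at 1020, 1350 and 119 CPM in controls, and the alveolar type 2 gene Sftpb at 948, 1360 and 500 CPM in knockouts and 237, 345 and 26.2 CPM in controls. Both were singled out after their values were seen. Over the 19 tested genes, 14 had a positive and 5 a negative log2 fold change, the groups overlapped in 13, and the knockouts lay above all controls in 4 and below them in 2, against 21.5% and 19.1% of all tested genes. Scgb1a1 and Sftpb are among the 4 above, and neither passed, with edgeR adjusted p of 0.185 and 0.163. In bulk tissue, fewer cells of a type and less RNA per cell cannot be told apart, and the part of such cells in the levels of the secretory genes was not tested. Of the neuroendocrine list, edgeR called 0 of 7 tested genes, although 4 had an unadjusted p under 0.05, DESeq2 called 1 and limma voom 0. In the whole table these shares were 4.31%, 30.7%, 26.6% and 5.96%, in the same order. Chga and Insm1 passed the filter through the controls alone, so a negative direction was fixed for them and nothing is read from it. Calca and Chga had log2 fold changes of -3.62 and -10.98, with adjusted p of 0.321 and 0.0970 by the edgeR test. Control 3 alone held 2040 and 948 CPM of them. In that library Tff3, Muc1, Muc5ac and Muc5b were at their lowest level among the controls and Tff2 had no read. Spink1 and Gkn2 had no read there or in control 1, and the 4 control reads of Tff1 all came from it.

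**Figure D5:**
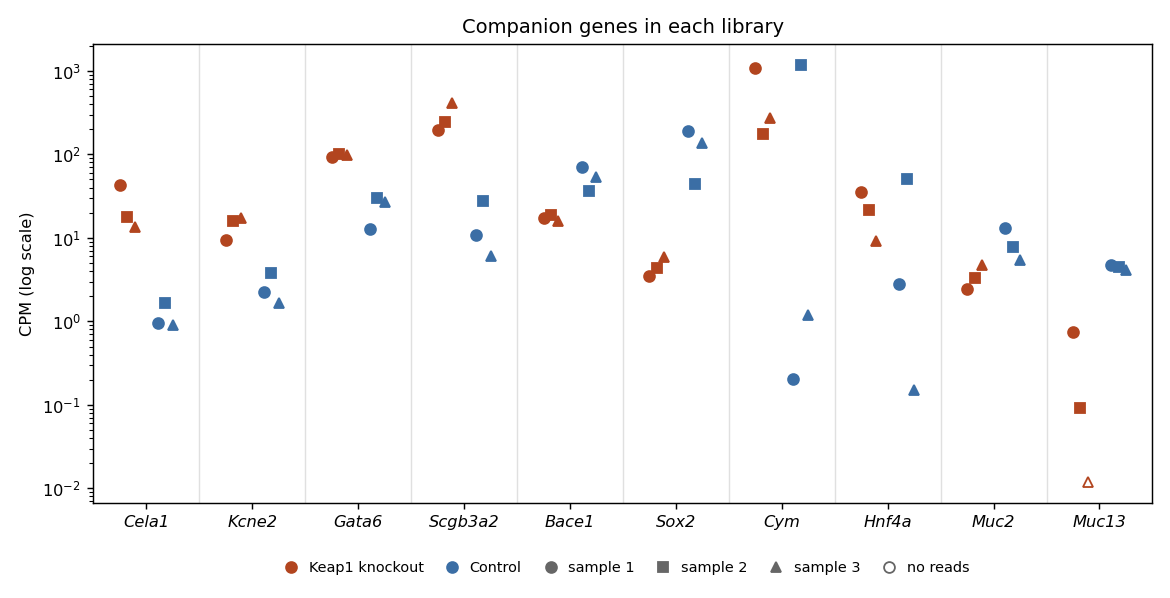
Level of 10 companion genes in each library, in CPM on a log axis, with knockouts to the left of controls and an open symbol for a library without a read. Cela1, Kcne2, Gata6 and Scgb3a2 lie higher and Bace1, Sox2, Muc2 and Muc13 lower in every knockout than in every control. Cym and Hnf4a are highest in control 2.

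The edgeR calls rest on all 3 knockout libraries. Without knockout 1, 2 or 3, none of the calls of Vwce, Vps37c, Scgb3a2, Kcne2, Bace1, Cela1, Gata6 and Sox2 held, with adjusted p between 0.126 and 0.236, while their log2 fold changes kept their direction. By the adjusted p of edgeR, calls also ended without control 1 for Kcne2 (0.0748), Bace1 (0.0554), Cela1 (0.0542), Scgb3a2 (0.0618), Vwce (0.0598) and Vps37c (0.0675), and without control 2 for Kcne2 (0.0609), Cela1 (0.0583), Gata6 (0.0591), Vwce (0.0822) and Vps37c (0.0609). Without the filter on low counts the calls of Kcne2 (0.0702) and Bace1 (0.0542) ended too.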

How the data were processed

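Messenger RNA of 3 Keap1 knockout and 3 control mouse lung tumour samples was sequenced. The deposited table holds raw read counts per Ensembl gene, and reads were aligned with STAR to mm39, per the submitters' processing notes. For the counting tool, annotation, strand treatment and read length, nothing is stated in the labels. The authors' deposited DESeq2 table, per the file headers, gives a mean normalized signal, log2 fold changes with their standard errors, a Wald score and p-values per gene. Its sign matches the counts, positive for higher in the knockout. Column names were tied to samples through the labels.

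Symbols were found for 52073 of 56980 identifiers, and Cblif was matched through an older symbol. Genes were filtered with filterByExpr, scaled by TMM and compared with the quasi-likelihood test of edgeR 4.0.16 in R 4.3.3 (robust, two-sided, genotype alone), with Benjamini-Hochberg adjustment over 17901 genes. Totals of 18731515 to 23759892 reads set the precision. Bounds use 3 reads over a group, intervals are exact at 95%, and both cover counting error only. Exon lengths and transcripts came from GENCODE M21 and promoters from RefSeq GRCm38.p6. That build differs from mm39, so no coordinate is given for the deposited values. The edgeR step was tested on simulated data.

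The 10 genes, the 9 lists and the neighbour rule were chosen with earlier results of these data known. Named genes were the 10, Keap1, in each list up to 4 called members with a mean of at least 1 CPM or else the 2 most abundant, and the neighbours of the trefoil and mucin clusters. The labels do not say whether replicate numbers pair the samples, and the main fit did not use them. Alternatives were RLE scaling, other filters, DESeq2 1.42.0, limma voom 3.58.1, each library left out and the replicate number as a block. Results for some genes are not given here.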

Additional observations from a re-analysis of the deposited data

How the results depend on the processing

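Across the 12 alternatives the counts of calls moved widely, and the cause was not tested. The edgeR count over all genes was 771, and it was 465 without the filter on low counts and 4642 with DESeq2. When 1 library was left out it ran from 0 to 3209, the highest without control 3. Leaving out knockout 1, 2 or 3 gave 2, 0 and 0 calls, beside 3758, 3372 and 3321 genes at unadjusted p under 0.05. The 10 secretory genes were selected on these libraries, so nothing is read from their counts: 2 by edgeR, 1 without the filter, 6 with DESeq2 and 0 to 4 with a library left out. Without the filter the count was 0 for the stomach lining, 0 for the aspartic protease and Spink list and 2 for the neighbours. DESeq2 called 2 intestinal genes, 3 other mucins, 4 genes of mucin assembly, 4 transcription factors, 2 lung genes, 1 neuroendocrine gene and 15 neighbours, and limma voom called 1 other mucin. With a library left out the counts ran from 0 to 2 for the stomach lining, the intestinal genes, the other mucins and the neuroendocrine genes, from 0 to 4 for mucin assembly, from 0 to 1 for aspartic proteases and Spink inhibitors, acinar enzymes and lung genes, and from 0 to 7 for transcription factors and for neighbours.

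With the replicate number as a block, edgeR called 0 of all genes (4026 at an unadjusted p below 0.05), 0 of the secretory genes, 0 of the neighbours and 0 in each list. Whether the numbers pair the samples is not stated in the labels, and 3 libraries per group cannot decide it. Deviations of same-numbered libraries from their group means correlated at 0.0176, 0.00012 and 0.0507. Knockouts 1 and 2 correlated best with controls 2 and 3, and knockout 3 with control 3. Single genes were followed over the alternatives only for the tested secretory genes, the genes named by rule, Vwce, Vps37c and Cym. Directions turned for 4 of these. The other genes given in the text, such as Cldn18 and Hnf4a, were not followed. Muc1 turned to -0.18 without control 3. Lgals4 had a log2 fold change of 0.64 with limma voom and 0.79 with the block, and ran from -1.06 to 1.33 with a library left out. Calca had 0.01 and 1.21 in the same fits and ran from -4.67 to 1.57. Cym ran from -0.81 to 9.52 with a library left out. Of the secretory genes, Tff2, Tff3, Spink1 and Pga5 kept a positive and Muc5ac and Muc5b a negative log2 fold change in all alternatives. Depth limits Pgc, Tff1 and Gkn2, which had at most 37 reads in any library.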
